A study of Equus caballus with 93 samples.

Results

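After surgery, 22 of the 77 synovial fluid libraries held expression values packed into an unusually narrow range, and they came from 12 horses that also gave libraries of ordinary range. The libraries were chosen by one measured value, the spread of each: the SD of its log2 CPM (read count relative to a scaled library size, on a log2 scale) over all 15838 genes. A library of weeks 2 to 10 was called flat where its spread was below 2 and wide where it was 3 or more. The 12 horses gave 22 flat and 29 wide libraries, which are compared here within each horse. The 16 other wide libraries (from 4 horses with no flat one), 10 libraries between the limits and 16 libraries of week 0 complete the 93 of the series.

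The study followed 16 horses of 2 to 5 years (7 mares and 9 geldings). Surgery created an osteochondral fragment, a loose piece of cartilage and bone that produces osteoarthritis, in 1 middle carpal joint of each. The operated joint was injected at week 2, in 8 horses with 2 mL of a 2.5% polyacrylamide gel (iPAAG) and in 8 with the same volume of saline (Control), and exercise on 5 days a week followed until week 10. Cells of the joint fluid were sampled at weeks 0 (before surgery), 2, 4, 6, 8 and 10, and their total RNA went into libraries made with a low-input kit. Both arms share surgery, exercise and time, the sham-operated joints are not analysed here, and it is not stated if the fluid of week 2 was drawn before the injection. Horses are the replicates, and libraries of 1 horse share the animal.

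Synovial fluid fills the joint and normally holds few cells, mostly macrophages, lymphocytes and shed lining cells, and neutrophils can join them after injury. A sample of RNA from living cells typically gives a few very abundant transcripts, many of middle level and a long tail of genes that those cells barely use. In bulk RNA, fewer cells of a type and less RNA per cell cannot be told apart. The deposited table names genes by Ensembl identifier without symbols, so neither the labelled cell type nor any pathway could be checked against named markers.

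The values that chose the libraries are described here with no test. Spread in the flat libraries ran from 1.20 to 1.899, with a median of 1.41, and in the wide libraries of the same horses from 3.08 to 3.97, with a mean of 3.56. At the limits, the flattest library of weeks 2 to 10 left out of the flat set, Control horse 1 at week 8, had a spread of 2.19. The lowest wide library stood at 3.08 and the highest library below the upper limit at 2.95. Within a horse, the flat libraries had a mean spread of 1.47 and the wide ones of 3.54, a difference of -2.07 ± 0.16 (SD, n = 12 horses). The central part of the profile, from the 5th to the 95th percentile of genes, spanned 4.69 log2 units in flat and 11.9 in wide libraries, averaged over horses.

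**Figure D1:**
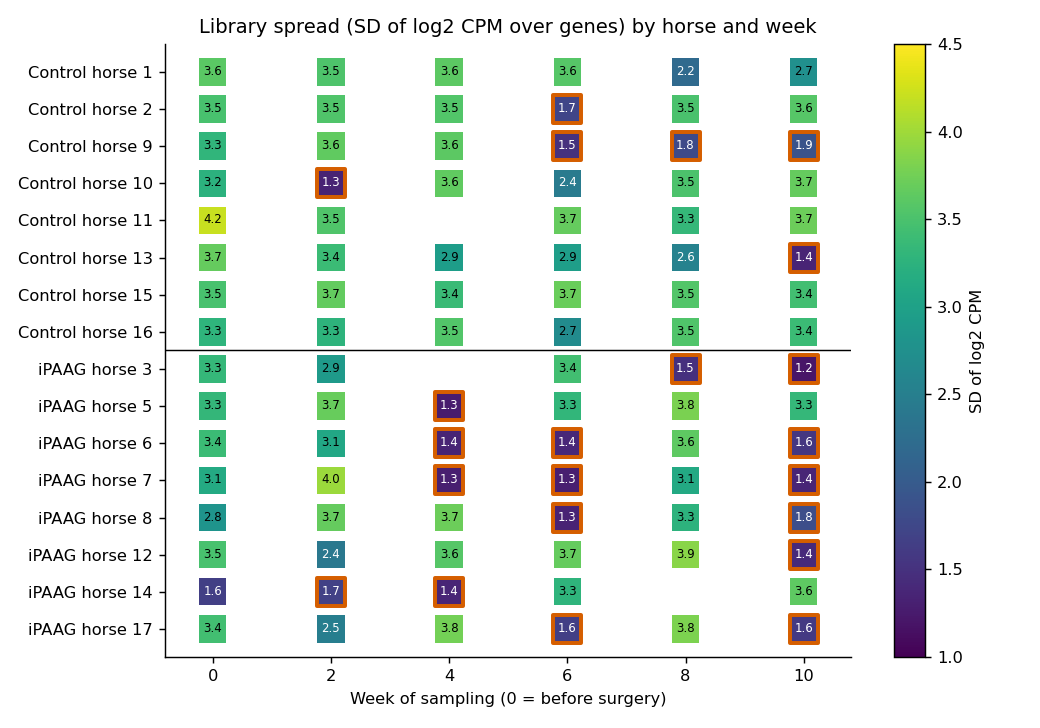
Spread of every library (SD of log2 CPM over 15838 genes, colour and printed value) by week of sampling and horse, with Control horses above the line and iPAAG horses below it. Orange frames mark the 22 flat libraries of weeks 2 to 10, and in 8 horses a flat library came before a wide one.

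Within a horse, flat and wide libraries came in mixed order. In 8 of the 12 horses a flat library was followed by a wide one at a later week. Of the 22 flat libraries, 8 were followed by a wide library at the horse's next sampling and 6 by another flat one, and 8 were of week 10, the last sampling. The horse's previous library, week 0 included, had a spread of 3 or more in 14 cases, below 2 in 7 and between these limits in 1. Horses had flat libraries at 1 time (5 horses), 2 times (4 horses) or 3 times (3 horses). Week 10 had the most flat libraries, 8 of its 16, followed by week 6 with 6 of its 16. Week 4 had 4 among 14 libraries, while week 8 had 2 among 15 and week 2 had 2 among 16.

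The rule that chose the libraries uses no arm label, but its limit was set with the spread of both arms known. The share of flat libraries was compared between the arms over horses. After the injection, at weeks 4 to 10, a mean of 50% ± 20.9 of an iPAAG horse's libraries were flat (SD, n = 8, from 25.0% to 75.0%), against 15.6% ± 26.5 in Control horses (SD, n = 8, from 0% to 75.0%). All 8 iPAAG horses and 3 of the 8 Control horses had at least 1 flat library at these weeks. The difference was 34.4 percentage points (two-sided exact permutation test over horses, p = 0.0197, Benjamini-Hochberg adjusted p = 0.0200 over 2 comparisons). Over weeks 2 to 10 the means were 42.5% and 15.0% (8 horses each, two-sided exact permutation p = 0.0200, adjusted p = 0.0200). The limit of 2 was chosen with earlier results of these data known, in which spread had been compared between the arms, so these p-values are descriptions and support no difference between the arms. With the limit at 3, the difference at weeks 4 to 10 was 12.5 percentage points (8 horses each, exact permutation p = 0.453).

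Sequencing depth moved with flatness in every horse. Flat libraries held 1737741 to 10608339 reads in genes, with a median of 5836158, and wide libraries of the same horses 16835262 to 34175789, with a median of 23308769. None of these wide libraries was as shallow as any flat one, and in the median horse flat libraries had 0.250 times the reads of wide ones. The reads of every library were also scaled to the smallest total, 1737741, and rounded, which matches the totals but adds none of the counting error of a shallow library. Spread was then 1.17 to 1.86 in flat and 2.83 to 3.22 in wide libraries of these horses. Control horse 11 at week 8, with 6076026 reads, had a spread of 3.33, or 2.87 after that scaling, and lay within the depth range of the flat libraries. In that library, which is outside the within-horse comparison, a single gene took 44.8% of the reads. The 10 libraries between the limits held 11077607 to 28045173 reads (median 20648446), near the depth of the wide ones, at spreads of 2.19 to 2.95. The part of depth in flatness was not tested beyond these values.

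Among the genes of the table, flat libraries mostly left fewer without a read than wide ones. Flat libraries left 4 to 65 of the 15838 genes without a read (median 7.5), while wide libraries of the same horses, with more reads, left 61 to 1331 (median 697). The filter on low counts is not given, and genes that passed it only through flat libraries would give such a difference by themselves. The source of this difference was not tested. Reads were also shared more evenly in flat libraries. The 10 most abundant genes of a library held a mean of 5.66% of its reads in flat and 11.8% in wide libraries (12 horses, lower in 12 of 12). The number of top genes needed to reach 50% of the reads was 2361 in flat and 599 in wide libraries, averaged over horses.

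Against this background the highest genes largely held their rank. Rank is unaffected by how a library is scaled. Genes were ranked within each library, ranks were averaged over the wide and over the flat libraries of each horse, and the median was taken over the 12 horses. Genes were then ranked again by that median. Wide and flat ranks given here are places in that second order, except where ranks in single libraries are named. Of the 500 highest genes in wide libraries, 365 were also among the 500 highest in flat libraries, a place held by 3.16% of all genes. None of the 500 (0) dropped below the middle rank, where 50% of all genes lie. The lowest flat rank among them was 2248, and 23 of them ended outside the flat top 1000. All of the first 100 and all of the next 100 genes were kept, then 89, 59 and 17 of each further 100. The genes that left were thus mostly those nearest the limit of the list, with a median wide rank of 421 against 183 for the genes kept. In every one of the 12 horses, 50 genes stayed within the top 500 by their mean rank over the horse's flat libraries. Because the spread over all genes chose the libraries, these counts are a description.

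**Figure D2:**
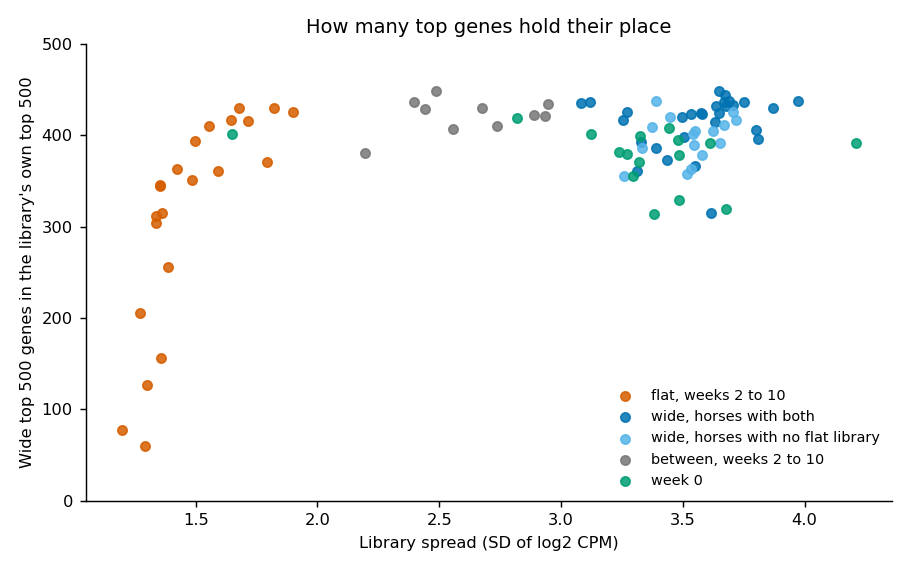
Number of the 500 highest genes of wide libraries found in each library's own top 500 (vertical axis) against its spread (SD of log2 CPM, horizontal axis), for all 93 libraries coloured by kind. Of the 22 flat libraries 10 hold at least 356, the lowest count of the wide libraries of other horses, and the 4 lowest hold 60 to 156.

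Single libraries set the scale for these counts. The list was made from wide libraries of the 12 horses, so its overlap with libraries that were not used gives a reference for ordinary turnover. In the 16 wide libraries of the 4 other horses, 356 to 438 of the 500 genes were in the library's own top 500 (median 403). In the 15 week 0 libraries with a spread of 2 or more the count was 314 to 419 (median 382), and in the 10 libraries between the limits 381 to 449 (median 425.5). Flat libraries had 60 to 430, with a median of 348.5, and 10 of the 22 had at least 356, the lowest count of the unused wide libraries. The wide libraries of the 12 horses themselves, which made the list, had 315 to 448 (median 424).

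Of the 22 flat libraries 16 held at least 300 of the 500 genes. The lowest counts were all in iPAAG horses, which gave 16 of the 22 flat libraries, against 6 from Control horses. No difference between the arms is read from these counts. iPAAG horse 7 at week 4 held 60 of the 500 genes, iPAAG horse 3 at week 10 held 77, iPAAG horse 7 at week 6 held 127 and iPAAG horse 14 at week 4 held 156. Next came iPAAG horse 5 at week 4 with 205 and iPAAG horse 6 at week 6 with 256. In the first 2 libraries, 76 and 49 of the 500 genes were even below the middle rank, against 0 in 12 of the 22 flat libraries and 1 or 2 in another 6. The 4 with fewer than 200 genes had a spread of 1.20 to 1.36, but Control horse 13 at week 10 held 345 genes at a spread of 1.35. Across the 22 flat libraries, the count and spread had a Spearman rho of 0.91, the count and reads a rho of 0.59, and spread and reads a rho of 0.53. Several of these libraries come from 1 horse, and spread and count are computed from the same values. Without these 4 libraries, 412 of the 500 genes were kept, which was computed after seeing the data.

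What flat libraries lost was the order of the lower part of the profile. Each library was compared with the mean wide profile of all other horses, separately for the 7919 genes above the middle wide rank and the 7919 below it. Above the middle, flat libraries had a Spearman rho across genes of 0.32 to 0.94 (median 0.74). Below it, rho was -0.05 to 0.33 (median 0.03), and it was under 0.1 in 15 of the 22. The wide libraries of the same horses gave 0.82 to 0.96 (median 0.94) above the middle and 0.79 to 0.93 (median 0.90) below it. In these libraries the order of weakly read genes was shared among horses in wide libraries and nearly absent in most flat ones. Spread chose the libraries, wide libraries set the middle rank, and some lower genes may have entered the table only through flat libraries. These rho values are therefore a description. Genes are not independent replicates, so no p is given.

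**Figure D3:**
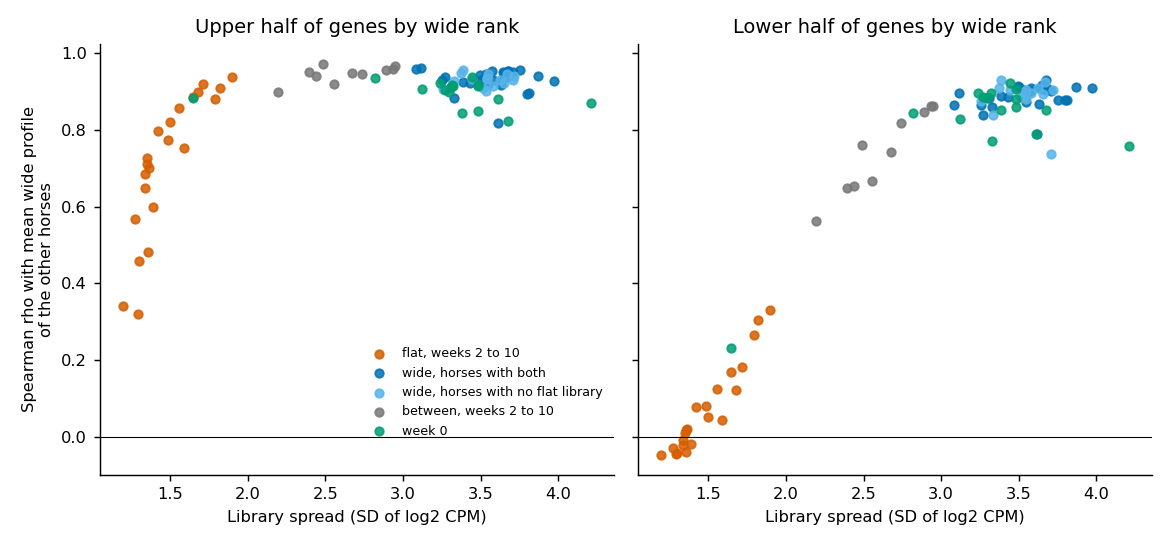
Spearman rho across genes between each library and the mean wide profile of the other horses (vertical axis) against library spread (SD of log2 CPM, horizontal axis), for the 7919 genes above (left) and below (right) the middle wide rank. Libraries between the limits keep a rho of 0.56 to 0.86 for the lower genes, and flat libraries lie between -0.05 and 0.33.

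Libraries that were neither flat nor wide by the rule were compared in the same way. Between the limits, rho was 0.90 to 0.97 above the middle rank and 0.56 to 0.86 below it (10 libraries). The week 0 library of iPAAG horse 14, taken before surgery with a spread of 1.65 and 12597216 reads, gave 0.88 above the middle and 0.23 below it. The other 15 week 0 libraries gave 0.82 to 0.94 and 0.76 to 0.92. A flat profile was thus also present in 1 sample of an unoperated joint, in a horse whose libraries at weeks 2 and 4 were flat too.

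By level, genes of the upper bins were lower in flat libraries and those of the lower bins higher, when genes were put into 10 equal bins of wide rank. The median gene of the highest bin stood at a log2 CPM of 8.03 in wide and 6.30 in flat libraries, a median difference of -1.81 in the within-horse, week-adjusted fit. In the fifth bin the difference was -0.15. In the lowest bin the median gene stood at -2.89 in wide and 3.87 in flat libraries, a median difference of 6.57, which was 6.08 to 7.57 in single horses. Reads followed the same course. The highest bin held 67.4% of the reads in the median wide library and 36.8% in the median flat one, and the lowest bin 0.03% and 5.80%. Below the middle rank, all genes together took 2.91% of reads in wide and 26.7% in flat libraries, averaged over the 12 horses, with a higher share in flat libraries in 12 of 12.

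**Figure D4:**
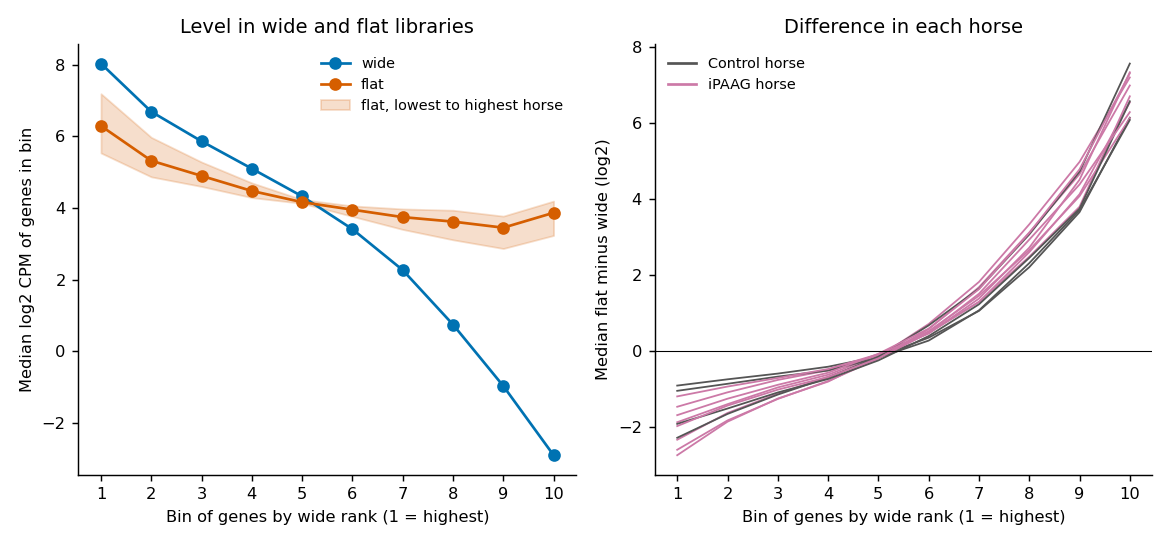
Left, median log2 CPM of the genes in 10 equal bins of wide rank (1 is the highest) in wide and flat libraries, with the range of the flat value over 12 horses shaded. Right, median flat minus wide difference (log2) of each bin in each horse, which runs from below 0 in the first bins to between 6.08 and 7.57 in the last.

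The lowest point of the flat profile was the ninth bin, at a median of 3.45, and the genes of the tenth bin stood above it at 3.87. The tenth bin was above the ninth in 22 of 22 flat libraries and in 0 of 29 wide libraries of the same horses. In libraries that did not choose the bins, it was above in the flat week 0 library of iPAAG horse 14, in 5 of 10 libraries between the limits, in 0 of the 15 other week 0 libraries and in 0 of 16 wide libraries of other horses. The genes read least in wide libraries were thus read more than their neighbours in flat ones. The filter on low counts is not given, and genes that passed it only through flat libraries would give this order by themselves. The order of these bins is therefore a description, and its source was not tested. Near 0 reads the added 0.5 reads sets the wide value, so the size of the difference in these bins depends on it.

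By median rho, flat libraries resembled each other across horses more than they resembled wide libraries of their own horse. The median Spearman rho across genes was 0.88 between flat libraries of different horses (218 pairs, 0.54 to 0.97). It was 0.61 between flat and wide libraries of 1 horse (49 pairs, 0.20 to 0.88), and these ranges overlapped. Wide libraries of different horses had a median of 0.95 (939 pairs). The flat minus wide differences of 2 horses, which share no library, had a rho of 0.83 to 0.98 over 66 pairs of horses (median 0.92). The choice of libraries by spread by itself makes high genes lower and low genes higher in every horse. After the median of genes of like wide level was subtracted, rho was 0.32 to 0.76 (median 0.59). The filter on low counts is not given, and these values include genes that may have passed it only through flat libraries. Such genes would raise this rho by themselves, so it is a description and its source was not tested. By size, the mean of the 4 Control horses had 3710 genes lower and 5980 higher by 1 or more, and that of the 8 iPAAG horses 4376 and 6258.

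Counted by size, 4103 genes (25.9% of 15838) stood at least 1 log2 unit lower in flat libraries and 6144 (38.8%) at least 1 higher. The spread chose the libraries, so nothing is read from these shares. In all 12 horses 5397 genes were lower (34.1%) and 6154 higher (38.9%). All of the 500 highest wide genes were lower by 1 or more, with a median of -2.07. Of the 7919 genes below the middle rank 5999 were higher by 1 or more and 123 lower. These counts depend on the scaling, unlike the ranks. The scaled library size was 1.13 to 2.49 times the counted reads in flat libraries and 0.66 to 0.98 times in wide libraries of these horses. On plain library size the median difference of all genes moved by 1.08, from 0.11 to 1.19. Then 352 genes were lower by 1 or more and 8393 higher, and 236 of the 500 highest genes were lower by that much. With each library centred on its median, 6062 genes were lower and 5417 higher.

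The genes that took the places of the 135 that left were mostly of upper level already. Their median wide rank was 1271, and 55 of the 135 came from the wide top 1000. Their median log2 CPM was 7.51 in wide and 6.86 in flat libraries, and their median difference was -0.59, a smaller one than that of the 500. On plain library size that difference was 0.49. From below the middle wide rank came 31 of them, and the largest difference was 11.02. In the 16 wide libraries that were not used, 6 to 29 of the 135 were in the library's own top 500. In the flat libraries, which made this list, the count was 14 to 113.

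Since no identifier could be paired with a symbol, 4 genes are given by identifier. The 2 with the smallest loss of level, among those that by mean flat rank stayed in the top 500 in every horse, were ENSECAG00000012932 and ENSECAG00000024397. The 2 with the largest loss were ENSECAG00000001650 and ENSECAG00000045200. No role is stated for them.

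ENSECAG00000012932 was at rank 433 in wide and rank 205 in flat libraries. A rise in rank goes with its choice for a small loss, so nothing is read from it. In single libraries its rank was 309 to 740 in wide (median 495) and 88 to 551 in flat ones (median 262.5). Its log2 CPM was 6.49 to 8.07 in the 22 flat libraries (median 7.23) and 8.14 to 9.09 in the 29 wide ones (median 8.57), with no overlap. The within-horse difference was -1.16 ± 0.10 (SE). The gene was lower in flat libraries in 12 of 12 horses, as were 461 of the 500 highest wide genes. Its share of all reads hardly differed, at a median of 0.0296% in flat and 0.0308% in wide libraries, and on plain library size the difference was -0.08. Its lower log2 CPM thus came with the larger scaled sizes of flat libraries.

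ENSECAG00000024397, chosen in the same way, was at rank 377 in wide and rank 167 in flat libraries. In single libraries its rank was 160 to 917 in wide (median 423) and 60 to 587 in flat ones (median 220). Its log2 CPM was 6.80 to 8.53 in flat libraries (median 7.49) and 7.85 to 9.70 in wide ones (median 8.76), and these ranges overlapped. The difference was -1.24 ± 0.15 (SE), and -0.16 on plain library size. This gene too was lower in 12 of 12 horses, as were 461 of the 500 highest wide genes. In week 0 libraries with a spread of 2 or more it stood at 7.99 to 9.58, and at 7.93 in the flat one of iPAAG horse 14.

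ENSECAG00000001650 kept its place, at rank 16 in wide and 15 in flat libraries, with the lowest difference among the 500 genes. Its log2 CPM was 6.99 to 13.15 in flat libraries (median 9.96) and 10.64 to 14.47 in wide ones (median 12.48), and these ranges overlapped. In single flat libraries its rank was 2 to 250. The difference was -2.95 ± 0.48 (SE), or -1.88 on plain library size. Being lower in every horse was a condition of its choice. Its order with ENSECAG00000045200 turned on single horses, at -2.63 against -2.90 without iPAAG horse 3, -2.79 against -2.83 without iPAAG horse 5 and -2.96 against -2.97 without iPAAG horse 17. With the limits at 1.9 and 3.5 it was -2.25 against -2.67. The largest difference was in iPAAG horse 3, at 14.21 in wide and 7.36 in flat libraries, and the smallest in iPAAG horse 12, at 11.73 and 11.02. Its share of reads had a median of 0.164% in flat and 0.461% in wide libraries.

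ENSECAG00000045200 held rank 4 in both kinds. Its log2 CPM was 8.27 to 13.89 in flat libraries (median 11.20) and 13.13 to 15.20 in wide ones (median 13.91), with some overlap. The difference was -2.87 ± 0.36 (SE), or -1.80 on plain library size, and it too was chosen among genes lower in every horse. Its worst rank in a flat library was 14, and its share of reads was 0.0766% to 1.82% in flat and 0.663% to 2.58% in wide libraries. The 10 libraries between the limits had 12.97 to 14.88, and the 16 wide libraries of other horses 13.15 to 14.97.

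**Figure D5:**
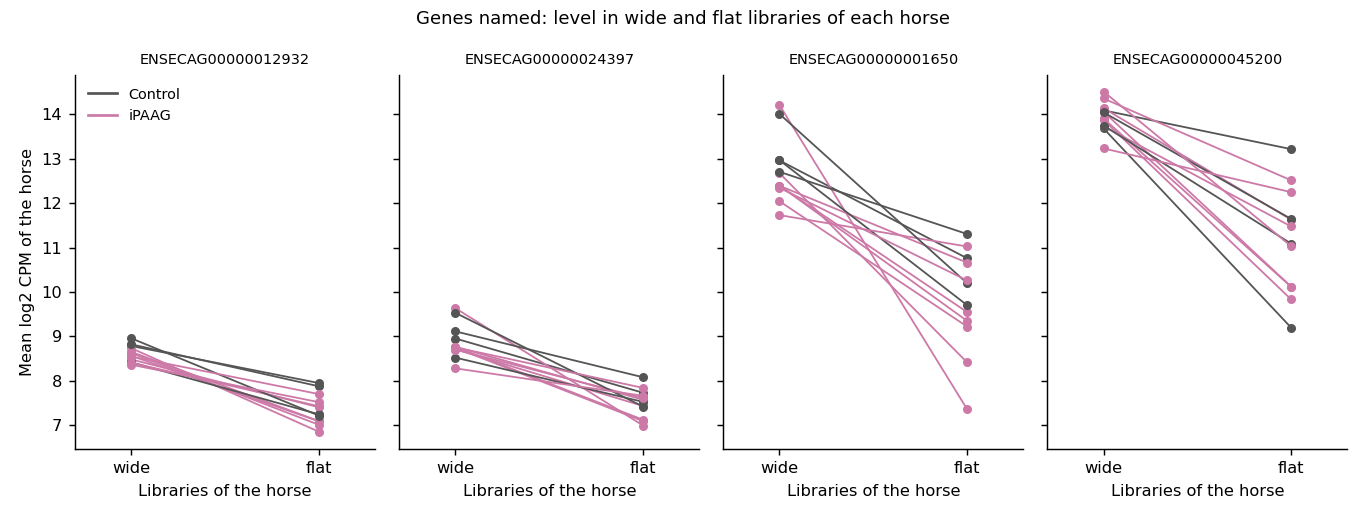
Mean log2 CPM (vertical axis) of 4 genes over the wide and the flat libraries of each of 12 horses, joined by a line per horse, with 4 Control horses in grey and 8 iPAAG horses in pink. All lines run downwards, with fitted differences of -1.16 and -1.24 for the first 2 genes and -2.95 and -2.87 for the others.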

How the data were processed

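The authors deposited log2 values for 15838 genes in 93 libraries, as voom-normalised log2 CPM. The submitters' processing notes name STAR 2.7.10b, EquCab 3.0 and limma 3.62.2. The read counter, strand setting, annotation release and filter on low counts: not given in the sources used here. The values are whole reads plus 0.5 over a scaled library size, and 100.0% of values were whole within 0.05 reads in every library. Libraries held 1737741 to 39916655 reads in genes, which limits the precision of low genes in the shallow ones.

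Flat minus wide differences came from limma 3.58.1 in R 4.3.3 (lmFit with horse as a fixed block and week as a factor, 51 libraries of 12 horses). Estimates and SE are given with no p. Libraries with the same number come from 1 horse. Deviations from kind-by-week means had a mean correlation of 0.10 for the same horse and -0.01 for different horses. Arms were compared over horses by two-sided exact permutation tests. Each p is the share of the 12870 relabellings of horses whose arm difference was at least as large in size as the observed one. One alternative was added after seeing the data. Other values used Python 3.11.15, numpy 2.4.6, pandas 2.3.3 and scipy 1.17.1, and plots matplotlib 3.10.9.

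Of 15838 identifiers, 0 were paired with a symbol by the gene table used, which is of another horse assembly. The 26 gene lists written could therefore not be described. Genes named are the 2 of smallest loss among those in the flat top 500 in every horse, and the 2 of largest loss among those lower in every horse. The libraries, lists and rules were chosen with earlier results of these data known.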

Additional observations from a re-analysis of the deposited data

Results flagged for a closer look

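In each of the 10 arm-by-week groups after surgery, the library furthest from its neighbour was compared with the range of its group (Dixon's test) for 8 quantities. That gave 80 tests and 18 values that stood apart, and chance alone flags about 1 in 20 groups. The quantities are computed from the same libraries, so the flags are not independent. Spread chose the flat libraries, and the genes were chosen by their flat minus wide difference, so flags on these restate that choice and support nothing.

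Low spread set apart Control horse 10 at week 2 (1.34, next 3.26), iPAAG horse 3 at week 8 (1.48, next 3.12) and Control horse 13 at week 4 (2.94, next 3.38), of which the last is between the limits and the others flat. Reads set apart Control horse 10 at week 2 (5355869) and iPAAG horse 14 at week 2 (7877238), both flat. The share of reads of the most abundant gene set apart Control horse 11 at week 8 (44.8%, next 4.92%) and iPAAG horse 17 at week 8 (4.504%, next 2.58%), both wide. The count of the wide top 500 in a library's own top 500 set apart Control horse 13 at week 10 (345, next 410) and iPAAG horse 3 at week 10 (77, next 315), both flat.

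The log2 CPM of ENSECAG00000012932 was low in Control horse 10 at week 2 (7.24), Control horse 13 at week 10 (7.22) and iPAAG horse 3 at week 8 (7.22). ENSECAG00000024397 was low in iPAAG horse 3 at week 8 (7.09). ENSECAG00000001650 was low in iPAAG horse 3 at week 8 (7.73) and week 10 (6.99). ENSECAG00000045200 was low in Control horse 10 at week 2 (9.20), iPAAG horse 14 at week 2 (12.6) and iPAAG horse 3 at week 10 (8.27). All of these are flat libraries.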

How the results depend on the processing

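Of 220 values recomputed under alternatives, 211 kept their direction and size class, 7 moved, 2 lost the threshold and 0 reversed. Part of these could not change, because ranks ignore scaling and a gene's own difference ignores which other genes are kept. Choosing libraries by spread also sets much of the direction, so the tally does not measure support. Without the 4 flat libraries that held fewest of the wide top 500, chosen after seeing the data, 3869 genes were lower and 6062 higher. On plain library size 352 genes were lower by 1 or more, against 4103, and the differences of ENSECAG00000012932 and ENSECAG00000024397 became -0.08 and -0.16. With library medians aligned, ENSECAG00000012932 was at -1.63. Among 12600 genes averaging 1 or more in log2 CPM, 3054 were higher, against 6144. With lists of another length, 199 of a top 250 and 722 of a top 1000 were kept. Both counted as moved only because raw counts of lists of unlike length were compared. With the limit at 3, the arm differences were 12.5 percentage points at weeks 4 to 10 and 18.1 at weeks 2 to 10 (8 horses each, exact permutation p = 0.453 and 0.167). Without the horse as block, that is with no pairing of libraries, 4173 genes were lower and 6168 higher, and no direction changed. Leaving out each horse gave 3970 to 4244 genes lower, 6054 to 6207 higher, 354 to 383 kept and 0 dropped below the middle rank. Arm differences were then 30.8 to 42.9 percentage points at weeks 4 to 10 and 25.0 to 33.9 at weeks 2 to 10. The limit of 2 was set with spread in both arms known, so these values support no difference between the arms. Depth limits the low genes, where a library of 1737741 reads cannot resolve differences near 1 read.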
